A study of Rattus norvegicus with 8 samples.

Results

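The 8 epithelial and liver microRNAs (miRNAs) rno-miR-200a, rno-miR-200b, rno-miR-200c, rno-miR-141, rno-miR-429, rno-miR-122, rno-miR-192 and rno-miR-194 were followed in cardiomyocyte preparations of young rats. They were taken by name from all the rat miRNAs on the array, which count 204 that at least 1 array detected and 473 that no array did. RNA of cardiomyocytes isolated at postnatal day 10 (P10) was hybridised to 4 arrays, and RNA of cardiomyocytes isolated at postnatal day 0 (P0) to the other 4. The sample labels describe the P10 cells as dividing less than the P0 cells. Both ages were rats of either sex with no stated strain, genotype change or treatment, total RNA was extracted with the mirVana kit, and every array carried Cy3-labelled RNA on 1 colour. The younger age is P0 in the sample labels but day 1 in the title and design text, and is called P0 here. The labels give neither the number of animals behind a sample nor how the cardiomyocytes were freed of other heart cells.

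MiRNAs are short RNAs that pair through their seed, the bases near the 5′ end, with messenger RNAs and repress them. The miR-200 family (miR-200a, miR-200b, miR-200c, miR-141 and miR-429) is made by epithelial cells, where it represses the transcription factors Zeb1 and Zeb2 and so keeps E-cadherin expressed. MiR-122 is the dominant miRNA of hepatocytes and also circulates in plasma, and miR-192 and miR-194 are made together from shared primary transcripts in gut, kidney and liver epithelium. They are not among the miRNAs that define heart muscle cells.

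The mature sequences are shown because the seed separates the groups within the list. RefSeq (GRCr8) matched 5 of the 8, printed 5′ to 3′ with bases 2 to 8, the seed, in capitals. MiR-200a, miR-200b and miR-429 are named only.
miR-200c-3p: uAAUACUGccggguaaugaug
miR-141-3p: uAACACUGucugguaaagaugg
miR-122-5p: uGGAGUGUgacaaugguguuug
miR-192-5p: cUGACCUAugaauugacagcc
miR-194-5p: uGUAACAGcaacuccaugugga

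The array measured each miRNA with 2 probes of 10 spots, the shorter one lying wholly within the longer one. The longer probes are shown because the family members' probes resemble one another. Capitals mark, for a miR-200 family probe, its longest run shared with another probe of the family, and for miR-192 the run it shares with the probe of its relative miR-215.
miR-200a probe: acatcgTTACCAGACAGT
miR-429 probe: acggcaTTACCAGACAGT
miR-141 probe: ccatctTTACCAGACAG
miR-200b probe: gtCATCATTACCaggcag
miR-200c probe: CATCATTACCcggca
miR-122 probe: caaacaccattgtcacactc
miR-192 probe: ggctgtcaatTCATAGGTc
miR-194 probe: tccacatggagttgct

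The probes of miR-200a and miR-429 shared a run of 12 bases, that of miR-141 shared 11 bases with each of them, and those of miR-200b and miR-200c shared 10. The miR-192 and miR-215 probes shared 8. The 5 probes whose mature sequence was matched were complementary to its 3′ end and left 2 (miR-122, miR-192), 5 (miR-141) or 6 (miR-200c, miR-194) bases of the 5′ end uncovered. Hybridisation of one miRNA to another's probe was not tested. On rat build rn4, at the positions in the authors' deposited table, the probes of miR-200a, miR-200b and miR-429 lay within 1835 bp of each other at chr5:172897242-172899076. Those of miR-200c and miR-141 lay within 443 bp at chr4:160840966-160841408. The miR-192 and miR-194 probes lay within 209 bp at chr1:209040091-209040299, and that of miR-122 at chr18:61512763-61512782. In the RefSeq gene table, the span of the protein-coding gene Ttll10 holds the hairpins of miR-200a, miR-200b and miR-429, the span of Iars2 holds a second hairpin of miR-194, and no protein-coding gene spans those of miR-200c, miR-141, miR-122 or miR-192. MiRNA clusters of this kind are read from one primary transcript, so their members are not independent measurements.

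The values are processed spot intensities, which are background-subtracted and can fall below 0. A probe's signal is the mean over its unflagged spots, and a probe counted as detected where the scanner had marked at least 0.5 of them as well above background. Each signal was also set against the negative control spots of the same array, 434 spots of 7 sequences, of which the 408 to 426 unflagged ones were used. The measure, z, is the distance from the mean of these control spots in units of their standard deviation (SD). The control spots averaged 3.16 to 4.52 intensity units on P10 arrays and 3.65 to 4.41 units on P0 arrays. Their SDs were 2.09 to 2.70 units at P10 and 2.20 to 2.57 units at P0, so the controls gave about the same baseline at both ages. The lowest signal counted as detected lay between 11.7 and 15.1 units on P10 arrays and between 13.7 and 19.3 units on P0 arrays.

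The arrays differed in brightness and independence. The 75th percentile of the probes detected on all arrays ran from 580 to 1276 units at P10 and from 116 to 1326 units at P0, and the scanner detected 169 to 187 miRNAs per P10 array and 73 to 176 per P0 array, with P0 replicate 1 the lowest on both. P10 replicates 1 and 2 correlated at 0.998 over miRNAs and replicates 3 and 4 at 0.997, against 0.890 to 0.898 between the pairs, so the 4 P10 arrays may hold fewer than 4 separate samples. The P0 arrays correlated at 0.808 to 0.994 with each other. P10 and P0 arrays filled separate rows of 1 slide, so the row and the age cannot be told apart. All 7 heart and muscle miRNAs were detected on at least 1 array, 6 to 7 of them per P10 array and 3 to 6 per P0 array. All 4 fibroblast-associated and both smooth muscle miRNAs were also detected on at least 1, so this does not single out cardiomyocytes. MiR-1, which drives muscle differentiation, had 2163 to 9229 units at P10 and 504 to 8883 units at P0.

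The 8 miRNAs were almost wholly undetected. At P10 none of the 32 pairs of a miRNA and an array was detected, and at P0 it was 1 of 32, miR-192 on replicate 2. Over all miRNAs on the array, 23.3% of such pairs were detected, and 30.1% of miRNAs were detected on at least 1 array. In total RNA of a preparation, fewer cells of a type and less RNA per cell cannot be told apart. "Not detected" here means not well above background on these arrays, and is no measure of absence.

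**Figure D1:**
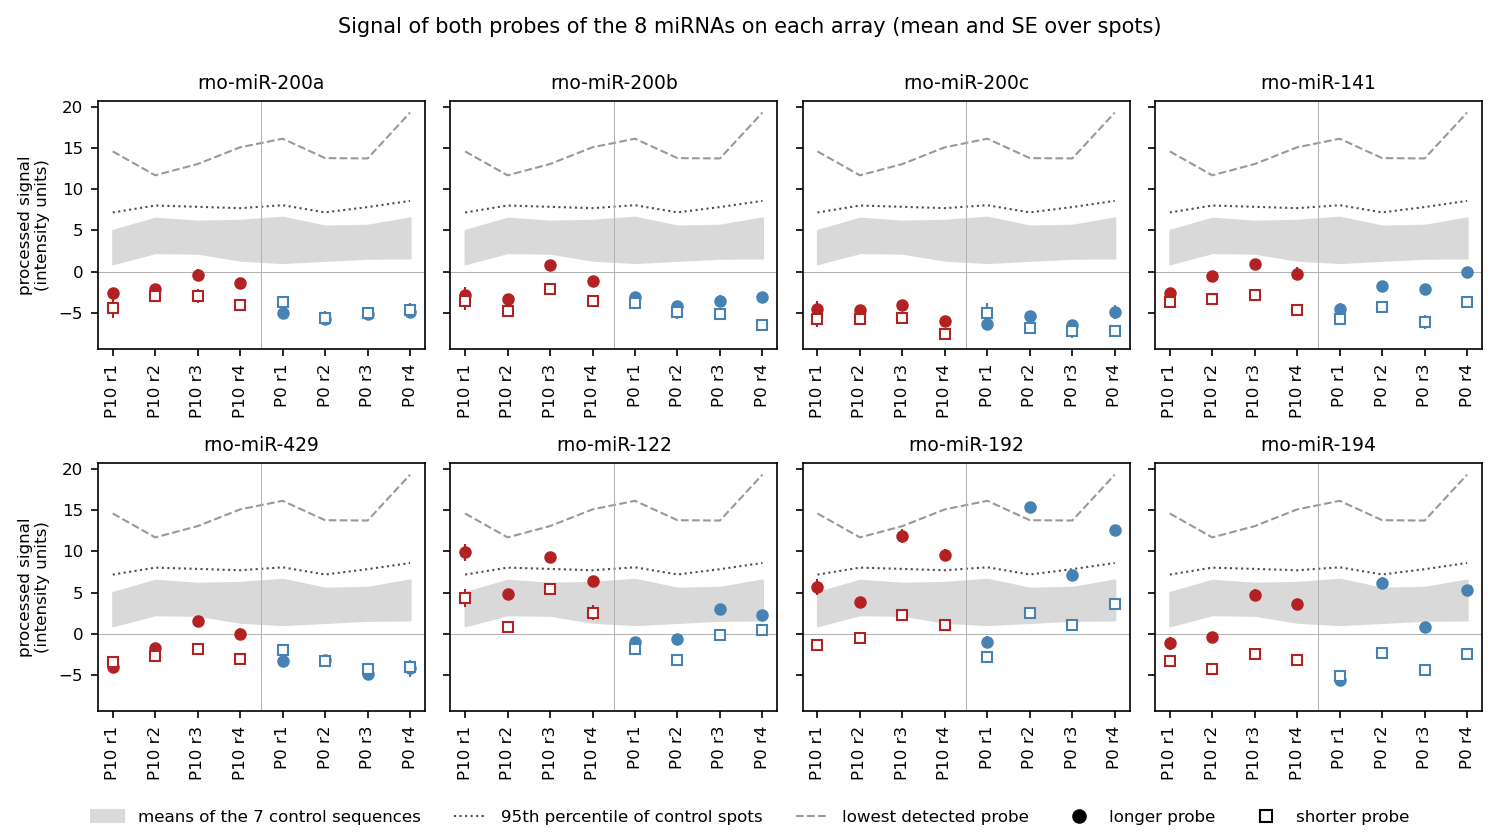
Processed signal (intensity units, y axis) of the longer probe (filled circles) and the shorter probe (open squares) of each of the 8 miRNAs on the 4 P10 arrays (red, left) and the 4 P0 arrays (blue, right), as mean with SE over spots. The grey band spans the means of the 7 negative control sequences, the dotted line is the 95th percentile of control spots and the dashed line the lowest signal counted as detected. Both probes of the 5 miR-200 family members lie below the band on every array, and only miR-192 on P0 replicate 2 reaches the dashed line.

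The miR-200 family was not detected on any array, and the longer probes of all 5 members lay below the mean of the negative control spots on all 8 arrays. The summed signal of the 5 longer probes was -16.6 to -1.20 units at P10 and -22.2 to -17.2 units at P0. Most miRNA probes of the array also lay below the control mean, 70.1% to 72.7% of all probes at P10 and 73.2% to 84.7% at P0. The median of all probes was -2.85 to -1.40 units on P10 arrays and -3.12 to -2.93 units on P0 arrays. A signal below 0 says only that the spots were on average no brighter than the background subtracted from them.

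MiR-200b and miR-200c carry the seed shared with miR-429. The longer rno-miR-200b probe had -2.90, -3.29, 0.78 and -1.18 units at P10, against -3.05, -4.15, -3.60 and -3.13 units at P0. P10 replicates 3 and 4 stood above the rest and the ages overlapped, with a z difference of 0.80 (P10 minus P0, exact two-sided permutation p = 0.114, adjusted p = 0.469 over all miRNAs on the array). The longer rno-miR-200c probe had -4.50, -4.72, -4.08 and -6.04 units at P10, against -6.36, -5.39, -6.45 and -4.94 units at P0. Its ages overlapped too, and the z difference of 0.35 did not pass the exact permutation test (p = 0.514, adjusted p = 0.83).

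The longer rno-miR-429 probe had -4.03, -1.76, 1.54 and 0.02 units at P10, against -3.28, -3.25, -4.87 and -4.21 units at P0. In units the ages overlapped, because P10 replicate 1 lay among the P0 arrays. As z the ages did not overlap, at -2.12 ± 0.66 at P10 and -3.38 ± 0.40 at P0 (SD, n = 4 each by array, exact permutation p = 0.0286, adjusted p = 0.208). The shorter probe of miR-429 had -3.48, -2.75, -1.85 and -3.03 units at P10, against -1.94, -3.32, -4.29 and -4.06 units at P0. Its ages overlapped, and its z difference of 0.25 had an exact permutation p of 0.314.

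MiR-200a and miR-141 carry the family's other seed. The longer rno-miR-200a probe had -2.55, -2.17, -0.41 and -1.45 units at P10, against -5.01, -5.74, -5.16 and -4.86 units at P0. Every P10 array was above every P0 array, all of them below the control mean. In z this was -2.43 ± 0.34 at P10 and -3.94 ± 0.29 at P0, a difference of 1.52 (SD, n = 4 each by array, exact permutation p = 0.0286, adjusted p = 0.208). With the mean signal minus the median local background in place of the processed signal, the z difference was 0.71 and the ages overlapped. The shorter miR-200a probe, which lacks 1 base of the longer one, had -4.40, -2.92, -3.02 and -4.06 units at P10, against -3.64, -5.61, -5.03 and -4.61 units at P0. On it the ages overlapped, and the z difference of 0.46 had an exact permutation p of 0.20.

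The longer rno-miR-141 probe had -2.65, -0.52, 0.97 and -0.25 units at P10, against -4.53, -1.78, -2.12 and -0.03 units at P0. The ages overlapped, with P0 replicate 4 level with the P10 arrays, and the z difference of 0.68 had an exact permutation p of 0.143 (adjusted p = 0.512). The shorter probes of miR-141, miR-200b and miR-200c had z differences of 0.55, 0.63 and 0.11, with exact permutation p-values of 0.229, 0.143 and 0.857. None of the 5 members passed the adjusted threshold of 0.05 on either probe. The 70 arrangements let no single miRNA pass it unless a large share of all miRNAs reached the smallest p together.

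**Figure D2:**
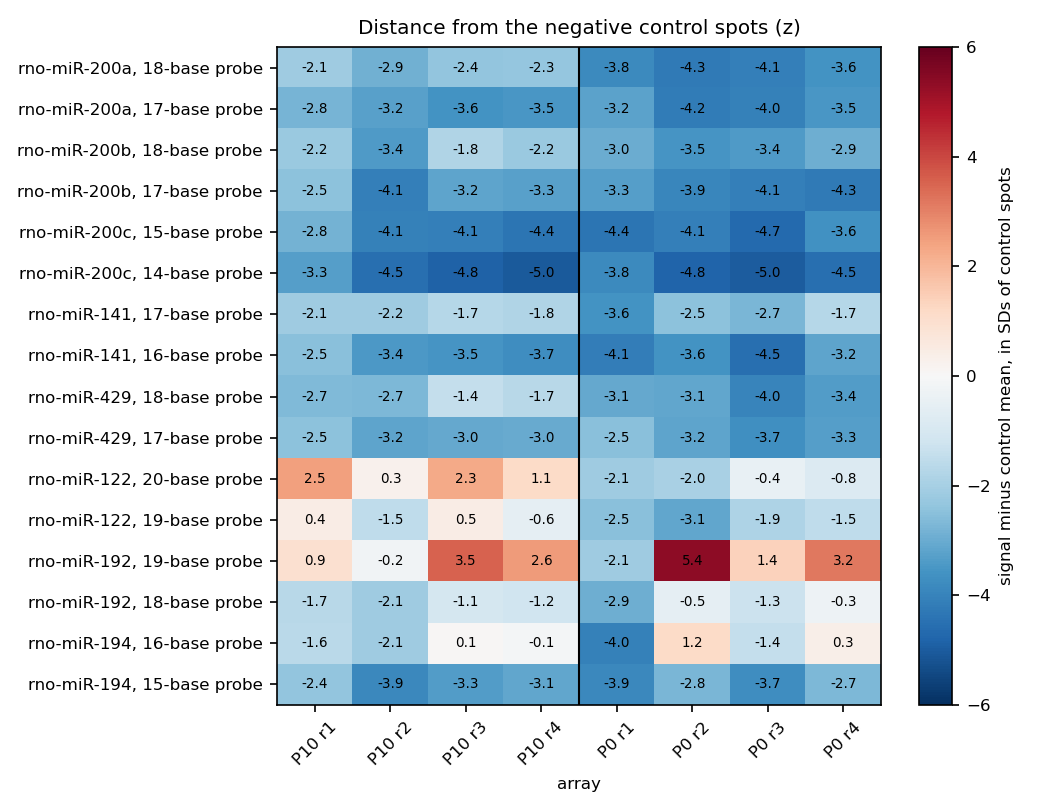
Distance of each probe from the negative control spots of its array (z, colour scale in SDs of the control spots) for both probes of the 8 miRNAs (rows, the longer probe above the shorter) on the 4 P10 arrays (left of the line) and the 4 P0 arrays (right of it). All rows of the miR-200 family are blue, below the control mean, while the longer probe of miR-122 is above it at P10 and below it at P0, and that of miR-192 is above it on 6 arrays, 3 of each age.

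The longer probe of the hepatocyte miRNA rno-miR-122 was above the control mean on all 4 P10 arrays and below it on all 4 P0 arrays. It had 9.86, 4.83, 9.30 and 6.38 units at P10, against -0.99, -0.66, 3.02 and 2.30 units at P0. Every P10 array exceeded every P0 array, by a mean of 7.59 ± 2.39 units at P10 against 0.917 ± 2.04 units at P0 (SD, n = 4 each by array), a difference of 6.68 units with an exact permutation p of 0.0286. In z it stood at 1.54 ± 1.04 at P10 and -1.34 ± 0.84 at P0, and the difference of 2.88 had the same p, the smallest that 70 arrangements can give, and an adjusted p of 0.208. With the spots marked as outliers kept, the z difference was 1.65, still without overlap, and 1 P0 array was above the control mean. By the scanner's flag miR-122 was not detected on any array.

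The shorter miR-122 probe moved the same way, with 4.34, 0.84, 5.48 and 2.56 units at P10, against -1.88, -3.26, -0.16 and 0.48 units at P0. In units its ages did not overlap (difference 4.51, exact permutation p = 0.0286). In z P10 replicate 2 lay just below the highest P0 array, and the difference of 1.96 had an exact permutation p of 0.0571. This probe was above the control mean on 2 of 4 P10 arrays and on no P0 array. Both probes cover the same stretch of miR-122, so they are not separate evidence of it.

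The single spots of the longer miR-122 probe are the repeats averaged into the signals above, so they are not further samples. At P10, 32 of 35 unflagged spots exceeded the mean of their array's control spots and 16 of 35 their 95th percentile. By array the latter were 7 of 9, 0 of 8, 8 of 10 and 1 of 8 spots on P10 replicates 1 to 4. At P0, 2 of 37 spots exceeded the control mean and 0 of 37 the 95th percentile. The probe mean was above the brightest of the 7 control sequences on 3 P10 arrays and on no P0 array (30.5% of all pairs of a miRNA and an array exceeded it), and above the 95th percentile of control spots on 2 P10 arrays, replicates 1 and 3, and on no P0 array.

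The scales of the arrays, as a measure of their brightness, stood beside these signals as follows. At P10 the scale was 652, 580, 1276 and 1269 units. Replicates 3 and 4 had nearly the same scale but miR-122 signals of 9.30 and 6.38 units. Replicates 1 and 2, the other near-identical pair, had 9.86 and 4.83 units. The arrays of each pair thus lay further apart than the lowest P10 array (4.83 units) and the highest P0 array (3.02 units). Replicate 1 had the highest signal of all at a scale near the lowest of that age. At P0 it was 116, 1326, 806 and 1160 units, and both the dimmest array, replicate 1, and the brightest, replicate 2, had miR-122 signals below 0. The erythroid miRNA miR-451 (miR-144, its partner, was not detected on any array) had 2.99, 2.12, 23.0 and 21.5 units at P10, against 0.215, 44.5, 19.2 and 32.7 units at P0. MiR-451 and miR-122 had the same lowest array at each age, P10 replicate 2 and P0 replicate 1, and different highest ones. The part of array brightness and of blood cell RNA in the miR-122 signal was not tested.

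**Figure D3:**
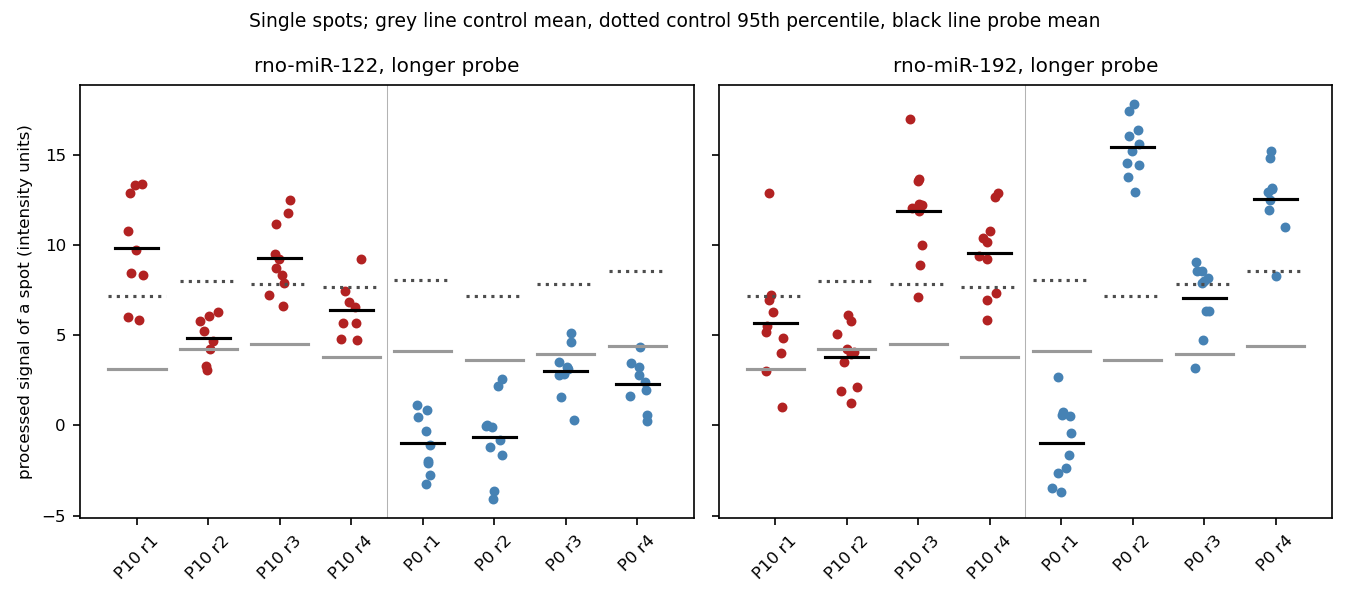
Processed signal (intensity units, y axis) of each unflagged spot of the longer probe of miR-122 (left panel) and of miR-192 (right panel) on the 4 P10 arrays (red) and the 4 P0 arrays (blue). The black line is the probe mean, the grey line the mean of the array's negative control spots and the dotted line their 95th percentile. For miR-122, 16 of 35 P10 spots (7, 0, 8 and 1 on replicates 1 to 4) and 0 of 37 P0 spots lie above the dotted line. For miR-192 it is 18 of 40 P10 spots (2, 0, 9 and 7) and 24 of 39 P0 spots (0, 10, 6 and 8). Spots of an array are repeats, not samples.

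The liver and gut miRNA rno-miR-192 gave the brightest single array of the list, and its ages overlapped. Its longer probe had 5.69, 3.81, 11.87 and 9.57 units at P10, against -0.96, 15.43, 7.10 and 12.56 units at P0. It was detected on P0 replicate 2, where 8 of 10 spots were well above background, and on P10 replicate 3 it had 3 such spots of 10. The ages averaged 7.74 ± 3.66 units at P10 and 8.53 ± 7.21 units at P0 (SD, n = 4 each by array), and the z difference of -0.25 had an exact permutation p of 0.886 (adjusted p = 0.969). The probe mean exceeded the brightest control sequence on 3 arrays of each age. The shorter probe had -1.33 to 2.27 units at P10 and -2.85 to 3.66 units at P0, and was below the control mean on all 8 arrays.

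The miRNA rno-miR-194, made from the same primary transcript as miR-192, had ages that overlapped as well. Its longer probe had -1.19, -0.45, 4.65 and 3.59 units at P10, against -5.60, 6.21, 0.82 and 5.29 units at P0. It exceeded the brightest control sequence on P0 replicate 2 alone, and the z difference of 0.05 had an exact permutation p of 1. The shorter probe stayed between -4.27 and -2.47 units at P10 and between -5.14 and -2.40 units at P0.

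MiR-192 and miR-194 were high on the same arrays. P0 replicates 2 and 4 and P10 replicates 3 and 4 were the 4 highest for both, and P0 replicate 1 was the lowest for both. The same 4 arrays also had the 4 highest scales, 1276 and 1269 units on P10 replicates 3 and 4 and 1326 and 1160 units on P0 replicates 2 and 4, while P0 replicate 1 had 116 units. Both miRNAs therefore moved with the brightness of the arrays, whose part in their pattern was not tested. MiR-215, which shares the seed of miR-192, had -4.40, -5.07, -2.89 and -4.93 units at P10, against -5.07, -6.23, -5.34 and -6.34 units at P0. It was not detected on any array.

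Across the list, 3 of 8 miRNAs (miR-200a, miR-429 and miR-122) reached the smallest p of the permutation test in the direction higher at P10, and none in the direction lower. Over all miRNAs on the array, 13.6% reached it higher at P10 and 0.148% lower, and among the 473 miRNAs detected on no array 11.0% reached it higher at P10. No miRNA on the array passed the threshold of 0.05 after Benjamini-Hochberg adjustment of the permutation p-values, while 93 had an unadjusted p under it. The median z difference of the 8 was 0.74, with 7 of 8 above 0. Over all miRNAs the median was 0.39, with 78.4% above 0, and over the 473 never-detected miRNAs it was 0.36, with 85.6% above 0. Undetected probes as a whole thus lay higher against the controls at P10, and the part of this shift in the values of miR-200a and miR-429 was not tested.

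MiR-122 had the largest z difference of the 8. Of the 473 never-detected miRNAs, 7 had a larger z difference than miR-122, while 28 had a larger one than miR-200a and 40 a larger one than miR-429. With the near-identical P10 arrays averaged in pairs, the p of all 3 was 0.0667, the smallest that 15 arrangements allow. Without P0 replicate 1 or P0 replicate 2 the p of miR-122 was 0.0571, and the z difference of miR-122 stayed between 2.57 and 3.31 with each array left out in turn. For miR-429 the p was 0.0571 without P0 replicate 1, 2 or 4 and 0.0857 without P0 replicate 3.

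**Figure D4:**
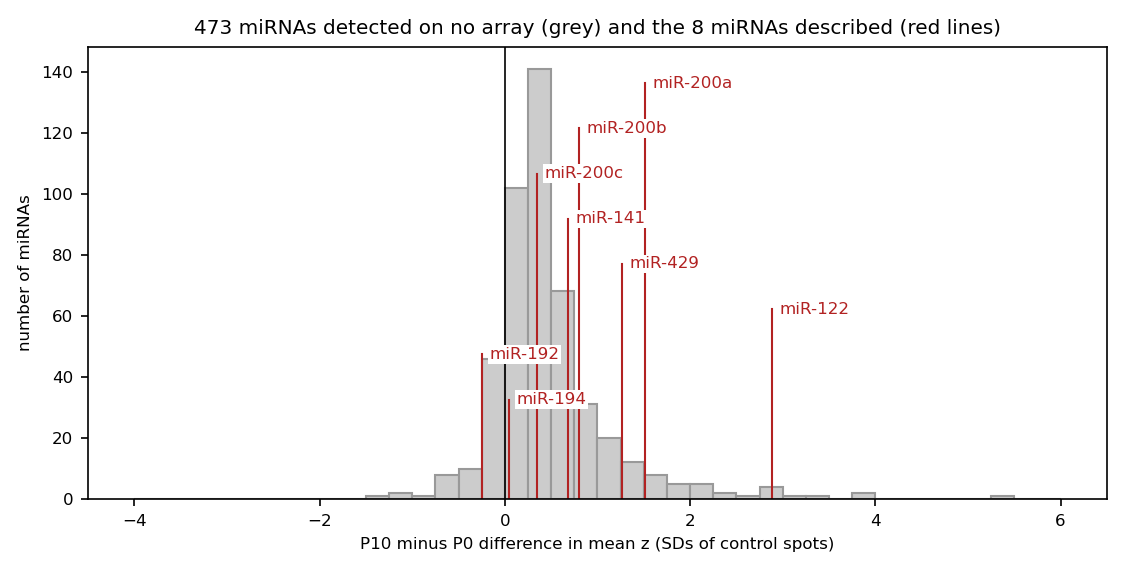
Number of miRNAs (y axis) by P10 minus P0 difference in mean z (x axis, SDs of the control spots) for the 473 miRNAs detected on no array (grey bars, 7 of the 8 miRNAs described among them), with the 8 miRNAs as red lines of arbitrary height. The grey distribution is centred above 0 with a median of 0.36, miR-192 lies below 0 at -0.25, and miR-122 lies at 2.88.

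On the log2 scale used for detected miRNAs, none of the 8 has a measured difference. Scaled signals were floored at 0.0169 (log2 -5.89), the median over the 8 arrays of each array's lowest detected signal. All 64 values of the list lay at or below that floor, the one of miR-192 that was detected among them. None of the 8 was among the 158 miRNAs tested with limma (those detected on all 4 arrays of an age), of which 8.86% passed the adjusted threshold of 0.05. With no filter, 4 miRNAs (0.591% of those on the array) passed limma's adjusted threshold, none of the 8 among them.

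The authors' deposited table marked miR-122 as detected on P10 replicates 1 and 3, with 6.80 and 6.27 in its raw columns. For miR-192, the authors' deposited table gave 8.01 on P10 replicate 3, and 10.3 and 8.44 on P0 replicates 2 and 4. It marked 5 of 64 values as detected in all, 3 at P10 and 2 at P0. All values of the miR-200 family and of miR-194 were marked as not detected there.

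Further miRNAs of the same tissues were mostly undetected as well, where 30.1% of all miRNAs were detected on at least 1 array. The 6 other epithelial miRNAs on the array, miR-203 and miR-205 of the skin, miR-375 of endocrine epithelium and the cluster of miR-182, miR-183 and miR-96, were not detected on any array. Their summed signal was -24.3 to -15.7 units at P10 and -26.3 to -22.9 units at P0. Of 5 further miRNAs listed for liver, gut, kidney and pancreas, miR-215, miR-802, miR-216a and miR-217 were not detected on any array. The exception was miR-148b-3p, which had 29.3, 23.9, 64.2 and 58.3 units at P10, against 0.10, 93.1, 48.9 and 81.9 units at P0. It was detected on all 4 P10 arrays and 3 P0 arrays, and its ages overlapped. Whether miR-148b-3p marks these tissues here was not tested, and the related miR-148a of the same list was not on the array. Also listed was miR-10a, on the array as miR-10a-5p and not counted among the 5. It was not detected on any array. Its z difference of 1.12 reached the smallest p of the permutation test, as 11.0% of the never-detected miRNAs did higher at P10.

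The opposite (star) strands of the hairpins were on the array for 7 of the 8 miRNAs. None was detected on any array, against 30.1% of all miRNAs detected on at least 1. MiR-194* had 4.37, 2.86, 3.07 and 1.33 units at P10, against -0.229, -1.53, -1.14 and -0.414 units at P0. MiR-200a* had -2.32, -2.05, -0.705 and -2.69 units at P10, against -3.60, -4.65, -4.44 and -5.85 units at P0. Neither overlapped between the ages, and each had an unadjusted exact permutation p of 0.0286, which 11.0% of the never-detected miRNAs reached in this direction. The other 5 did not reach it: miR-122*, the partner of miR-122, had a z difference of 0.12 (exact permutation p = 0.80), miR-200b* -0.08 (p = 0.886), miR-200c* 0.04 (p = 0.943), miR-192* 0.36 (p = 0.371) and miR-141* 0.97 (p = 0.114). The ages overlapped for miR-194, the partner strand of miR-194*, on both of its probes.

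Markers of the other cells that a heart preparation can hold were present in part. All 4 fibroblast-associated miRNAs, both smooth muscle miRNAs and 4 of 5 leukocyte miRNAs were detected on at least 1 array. So were 1 of 2 endothelial, 1 of 2 erythroid and 1 of 7 neural miRNAs, against 30.1% of all miRNAs on the array. The endothelial miR-126 had 161, 129, 203 and 189 units at P10, against 0.837, 80.8, 43.6 and 67.0 units at P0. Every P10 array was above every P0 array for it, while miR-126*, its partner strand, was not detected on any array. The summed signal of the 5 leukocyte miRNAs was 92.5 to 140 units at P10 and 10.5 to 67.2 units at P0, also without overlap. MiR-223 was detected on all 8 arrays and miR-142-5p on none. Within the sum, miR-146a had 39.2 to 77.6 units at P10 and -2.94 to 18.0 units at P0 (exact permutation p = 0.0286). The other members did not reach that p: it was 0.0571 for miR-223 and miR-142-3p, 0.60 for miR-150 and 0.20 for miR-142-5p. Of the 4 fibroblast-associated miRNAs, 3 did not overlap between the ages either: miR-199a-3p had 162 to 909 units at P10 and 4.78 to 121.9 units at P0, miR-214 had 96.9 to 547 units at P10 and 6.63 to 74.4 units at P0, and miR-199a-5p had 49.1 to 251 units at P10 and 2.02 to 40.7 units at P0. The fourth, miR-21, overlapped, and the summed signal of all 4 was 6171 to 17285 units at P10 and 490 to 8830 units at P0. Neural miR-124 and miR-9 were not detected on any array, and miR-128 was the neural miRNA that was. Smooth muscle miR-143 and miR-145 and erythroid miR-451 overlapped, with z differences of -308, -8.47 and -4.77. Leukocyte miR-142-3p and miR-150 overlapped too. Of the heart and muscle miRNAs, miR-208 and miR-206 were higher at P10 without overlap, and the others overlapped. Over all miRNAs on the array, 13.6% reached the smallest p of the permutation test higher at P10 and 0.148% lower. The endothelial miR-126, the leukocyte miR-146a with the sum that holds it, and the 3 fibroblast-associated miRNAs were higher at P10, as miR-122 was. Their part in the miR-122 signal was not tested.

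**Figure D5:**
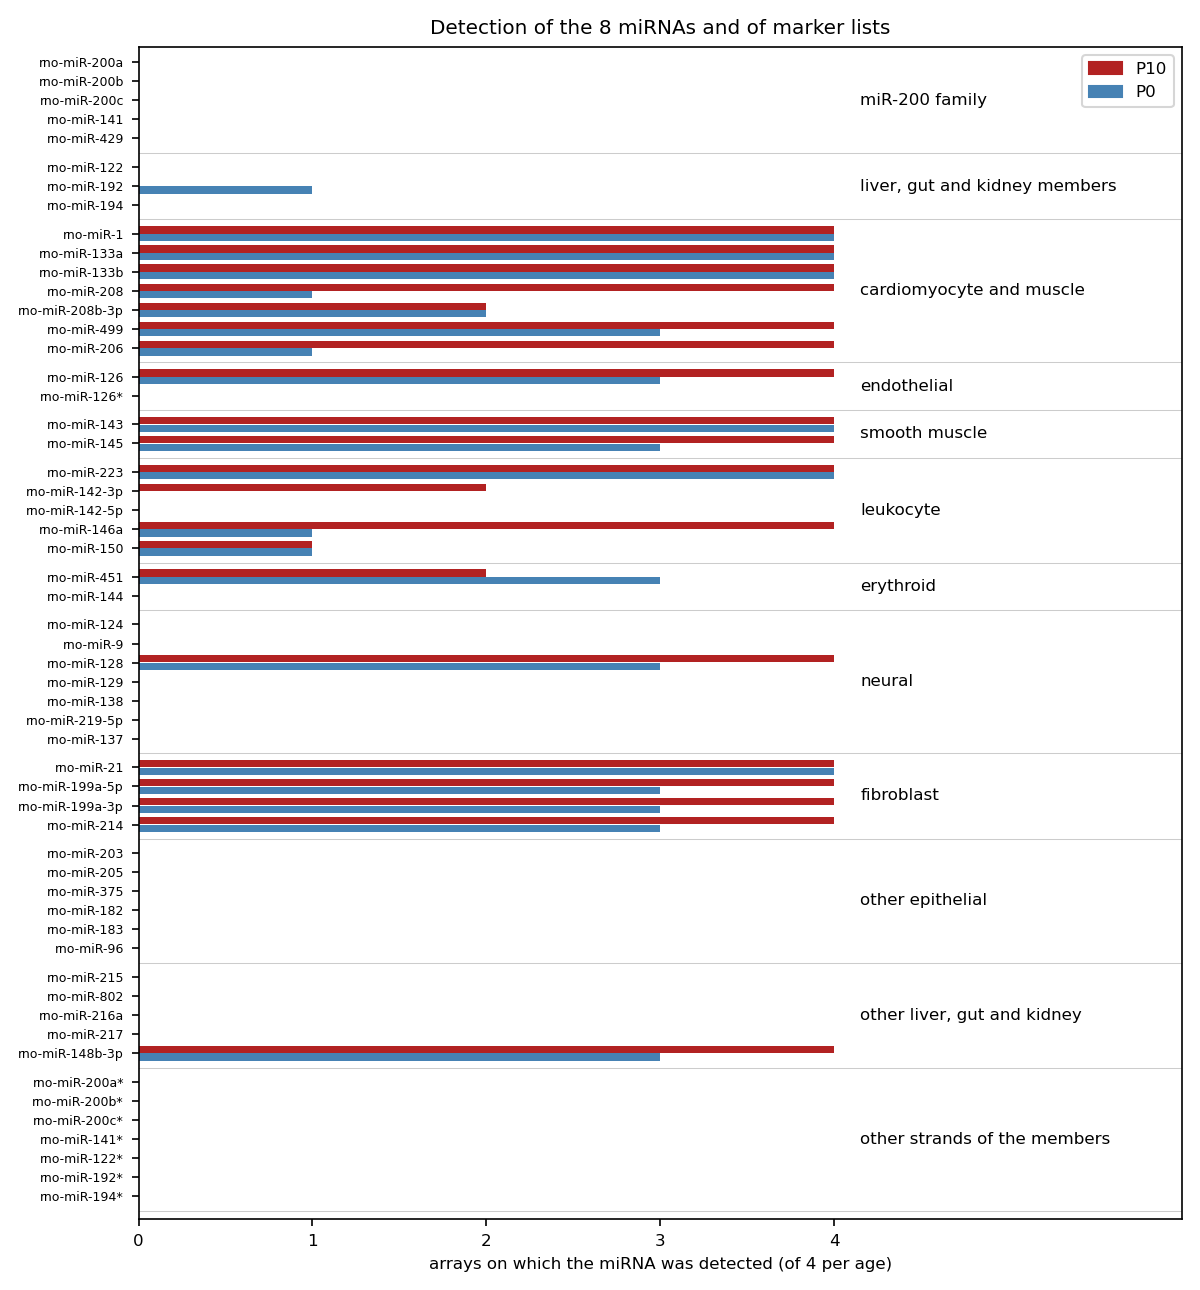
Number of arrays (x axis, of 4 per age) on which each miRNA was detected, for P10 (red, upper bar) and P0 (blue, lower bar), for the 8 miRNAs and the lists set beside them (named at the right). Of the 8, miR-192 alone has a bar, on 1 P0 array, while all 7 heart and muscle miRNAs have at least 1.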

How the data were processed

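Cy3-labelled total RNA of 4 P10 and 4 P0 rat cardiomyocyte samples was measured on Agilent miRNA arrays (design 031189), all on 1 slide. The deposited scanner files hold spot intensities written by Agilent Feature Extraction 10.7.1.1, per the submitters' processing notes, background-subtracted and not scaled between arrays. The deposited well-above-background and outlier flags came from the same software. The deposited normalized matrix holds log2 values with its own detection marks, by a normalization that the sources used here do not give.

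Spots marked as outliers were left out, and the rest of a probe averaged over its 10 spots. The longer probe, which had the higher mean, stood for each of the 8 miRNAs in the tests. Differences in z were tested for all miRNAs on the array with an exact two-sided permutation test (70 arrangements) and Benjamini-Hochberg adjustment. For the log2 fit, signals were divided by the array's 75th percentile of the 111 probes detected everywhere, floored, and tested with limma 3.58.1 in R 4.3.3. Other steps used Python 3.11.15. Both tests were checked on simulated data. For limma these were independent normal values without a floor or near-identical arrays, so that check does not cover signals near background. No spot was saturated, and array number limits the precision. Whether replicates were separate animals is not in the labels, and p-values therefore reflect the spread between these arrays alone, possibly a technical one. The 8 miRNAs, every probe of each, and the marker lists are the ones named, and all were chosen with earlier results of these data known.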

Additional observations from a re-analysis of the deposited data

How the results depend on the processing

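Detection of the list depended on the definition. Against 1 of 64 pairs of miRNA and array, 2 had at least 1 spot well above background, 0 had all spots so, 16 were positive and significant over local background (as were 55.2% to 82.1% of negative control spots), 6 exceeded the 95th percentile of control spots, 3 exceeded their mean plus 3 SD, and 10 exceeded the brightest control sequence (chosen after seeing the data). The longer probe exceeded the control mean in 13 pairs, and the mean of both probes in 8. Under 15 alternatives to the permutation test, of which averaging the P10 pairs and the replicate block cannot move the difference, its sign held for miR-122, miR-200a, miR-200b, miR-141 and miR-429. With outlier spots kept, miR-122 moved to 1.65, miR-200c to 0.91 and miR-194 to 0.35, and miR-200b and miR-141 no longer overlapped. With mean signal minus median background, miR-200a moved to 0.71 and miR-200c to 0.14, and miR-194 reversed to -0.16. The permutation difference reversed for miR-192 with scaled signals (2.30) and without both P10 replicates 1 and 2 (1.09), for miR-194 with unscaled signals (-0.031) and without both P10 replicates 3 and 4 (-0.88), and for miR-200c without both P10 replicates 1 and 2 (-0.048). Leaving out 1 array at a time gave -1.60 to 0.89 for miR-192, -0.97 to 0.77 for miR-194 and a count of 0 adjusted permutation calls throughout. The smallest p that the arrangements allow left that count little room to move. Same-numbered arrays did not deviate together (correlations 0.16, -0.15, 0.03 and 0.14). With the replicate number as a block, the smallest p of the sign-flip test was 0.125, 0 miRNAs passed after adjustment, and limma called 4 miRNAs in place of 14. That limma count, which holds none of the 8, was 0 with the P10 pairs averaged, 1 in the authors' deposited matrix, 8 with probes averaged, 4 with no detection filter, 0 with normexp, and 4 to 71 with 1 array left out, 71 without P0 replicate 1 and at most 18 otherwise. The causes were not tested. Scaling to the 75th percentile over all probes was not run, since that percentile was not above 0 on some array. Signal near background limits every value of the 8 miRNAs.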
